A study of Mus musculus with 28 samples.

Results

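Sparc, Postn, Bgn, Dcn, Fn1 and Lox, 6 genes for proteins of the bone matrix other than collagens, were examined among 22225 protein-coding genes. They were taken by name, and each was read over its gene body with 100 kb on each side (mouse build mm9, GENCODE M1 annotation). The cells were IDG-SW3, a mouse bone cell line immortalized with a temperature-sensitive large T antigen and carrying a green fluorescent reporter driven by the Dmp1 promoter. All groups came from this 1 line. It was expanded with interferon gamma and then matured, at a higher temperature and without interferon gamma, in medium with ascorbic acid and β-glycerol phosphate. The vitamin D receptor (VDR) and the retinoid X receptor (RXR) were immunoprecipitated at day 35 of maturation, after 3 h with vehicle or with 100 nM 1,25(OH)2D3 (1,25D3 below), in 2 biological replicates per arm. The acetyl marks H3K27Ac, H3K9Ac and H4K5Ac and the methyl marks H3K4me1, H3K4me2, H3K4me3, H3K36me3, H4K20me1 and H3K9me3 were profiled without hormone at day 3 and day 35, with 1 library per mark and day. The study asked how the chromatin of these cells changes on the way from osteoblast to osteocyte, and how it responds to the hormone.

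Bone matrix is mostly collagen, and the other proteins set how collagen fibrils form, bind mineral and hold cells. SPARC (osteonectin) and periostin are matricellular proteins, which act on cells and collagen more than as scaffolding. Biglycan and decorin are small leucine-rich proteoglycans that bind collagen fibrils, fibronectin is the glycoprotein on which other fibrils assemble, and lysyl oxidase makes the cross-links between collagen chains. VDR binds DNA as a heterodimer with RXR, typically at 2 hexamers in the same orientation separated by 3 bases, an arrangement called DR3. H3K27Ac, H4K5Ac and H3K9Ac mark active chromatin, H3K4me1 marks enhancers, H3K4me3 marks promoters, H3K36me3 and H4K20me1 lie along transcribed bodies, and H3K9me3 marks silent chromatin.

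The VDR and RXR lists held 291 to 10333 peaks each, and the histone lists 9360 to 100123 regions. Read depth is unknown, so no precision can be given for a single region, and an absent peak means only that none was called. VDR lists were longer with 1,25D3 (1618 and 1333 peaks in replicates 1 and 2) than with vehicle (291 and 342). RXR lists held 10333 and 7635 peaks with 1,25D3 and 6875 and 4093 with vehicle. The labelled cell type was checked at the starts of marker genes: at day 35 H3K27Ac lay within 2 kb of the start of 9 of 9 osteoblast genes and 9 of 10 osteocyte genes (Fgf23 lacked it), against 58.1% of all genes. It lay at 5 of 6 adipocyte, 6 of 7 chondrocyte, 1 of 7 skeletal muscle, 5 of 7 haematopoietic and osteoclast (Ptprc and Emr1 lacked it) and 2 of 6 endothelial markers. The part of other cell types in the results below was not tested.

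VDR was found near 2 of the 6 genes, Sparc and Postn, and only after 1,25D3. In the windows of all 6 genes together each 1,25D3 library had 2 VDR peaks and each vehicle library had 0. RXR peaks were already present without hormone, near every gene except Bgn, and their number was larger in the 1,25D3 lists. A site below was called in both replicates of an arm, with the 2 peaks sharing 1 bp or more, and it is hormone-only where no vehicle replicate had an overlapping peak.

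The VDR site of Sparc lay inside the gene and carried one of the higher scores of its list. Sparc (ENSMUSG00000018593.6, chr11:55208002-55233582, minus strand, 25.6 kb) had it at chr11:55219368-55219684, 14.1 kb into the gene, in intron 4 of its 10-exon transcripts (an intron of 1208 bp). Scores here and below are the authors' peak scores, used only to describe and rank peaks within a list. The VDR peak scored 47.5 in replicate 1 and 43.3 in replicate 2 with 1,25D3 and was absent from both vehicle lists. By the summed rank of both scores it stood 103 of 1218 VDR sites with 1,25D3 and 12 of 893 hormone-only sites. RXR was called at the same place in all 4 libraries, with scores of 6.8 and 9.6 with vehicle (rank 2589 of 3628 sites) and 23.5 and 20.8 with 1,25D3 (rank 248 of 6783 sites). The lists differ in length, so these ranks show no change by themselves.

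Postn (ENSMUSG00000027750.9, chr3:54165031-54194961, plus strand, 29.9 kb) had a weaker and more distant VDR site. It lay at chr3:54293762-54294094, between genes, 128.9 kb from the start and 98.8 kb past the gene's end, which is 0.867 kb inside the edge of the window. Its VDR scores with 1,25D3 were 10.1 and 7.7 (rank 940 of 1218 sites, and 644 of 893 hormone-only sites), and no vehicle peak overlapped it. An RXR site overlapped it, with scores of 8.4 and 7.9, and that too was hormone-only. With windows of 50 kb in place of 100 kb, only the Sparc site was counted.

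The bases under both VDR sites are shown because the spacing of the receptor's hexamers can be read in them. Each line gives the 200 bases around the centre of the VDR site, from the plus strand of mm9, with the DR3 element in capitals. The Sparc window is chr11:55219426-55219625 and the Postn window is chr3:54293828-54294027.
Sparc: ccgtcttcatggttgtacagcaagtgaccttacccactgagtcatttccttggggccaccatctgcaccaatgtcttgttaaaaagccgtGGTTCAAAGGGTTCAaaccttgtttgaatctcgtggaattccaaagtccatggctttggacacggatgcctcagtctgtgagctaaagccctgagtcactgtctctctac
Postn: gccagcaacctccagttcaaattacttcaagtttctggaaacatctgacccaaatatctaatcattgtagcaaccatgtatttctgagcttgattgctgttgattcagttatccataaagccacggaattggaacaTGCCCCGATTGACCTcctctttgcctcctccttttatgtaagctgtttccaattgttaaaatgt

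The search, chosen after the data had been seen, looked on both strands for 2 hexamers in the same orientation, with at most 1 mismatch over the pair. Each hexamer was made of a purine, a guanine, a guanine or thymine, a thymine, a cytosine or guanine and an adenine, as in AGGTCA, which allows 8 hexamers. Elements of different spacing were allowed to overlap. In Sparc the element GGTTCAAAGGGTTCA (chr11:55219516-55219530, plus strand) repeated the same hexamer with 0 mismatches, 3 bp from the centre of the site. In Postn the element AGGTCAATCGGGGCA (chr3:54293964-54293978, minus strand) had 1 mismatch and lay 43 bp from the centre of the VDR site and 9 bp from that of the RXR site. A DR3 with at most 1 mismatch stood in 51.5% of the 893 hormone-only VDR sites and in 4.65% of windows of the same length 2 kb away. A DR3 without mismatch, as in Sparc, stood in 15.6% of those sites and 0.28% of the windows 2 kb away. The Postn window also held a DR4, the same hexamers spaced by 4 bases, with 1 mismatch (17.7% of hormone-only VDR sites). Both windows held TGANTCA, where N is any base, a loose form of the letters bound by AP-1 factors. It read TGAGTCA in Sparc and TGATTCA in Postn, and 28.3% of hormone-only VDR sites held TGANTCA. A match in letters is a description and not a measured site.

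The other 4 genes had no VDR site within 100 kb in either arm. The nearest VDR site with 1,25D3 was 161 kb upstream of Fn1, with scores of 17.3 and 9.8 and hormone-only. For Bgn it was 775 kb away, for Dcn 1160 kb and for Lox 1210 kb. Over all genes, 18.1% had a VDR site with 1,25D3 within 100 kb, 7.65% had one with vehicle and 10.8% had a hormone-only one, against 2, 0 and 2 of the 6 genes. VDR peak number was 2.00 ± 0.00 with 1,25D3 and 0.00 ± 0.00 with vehicle (SD, n = 2), and an exact permutation test (two-sided) gave p = 0.33, the smallest value that 2 libraries against 2 allow.

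**Figure D1:**
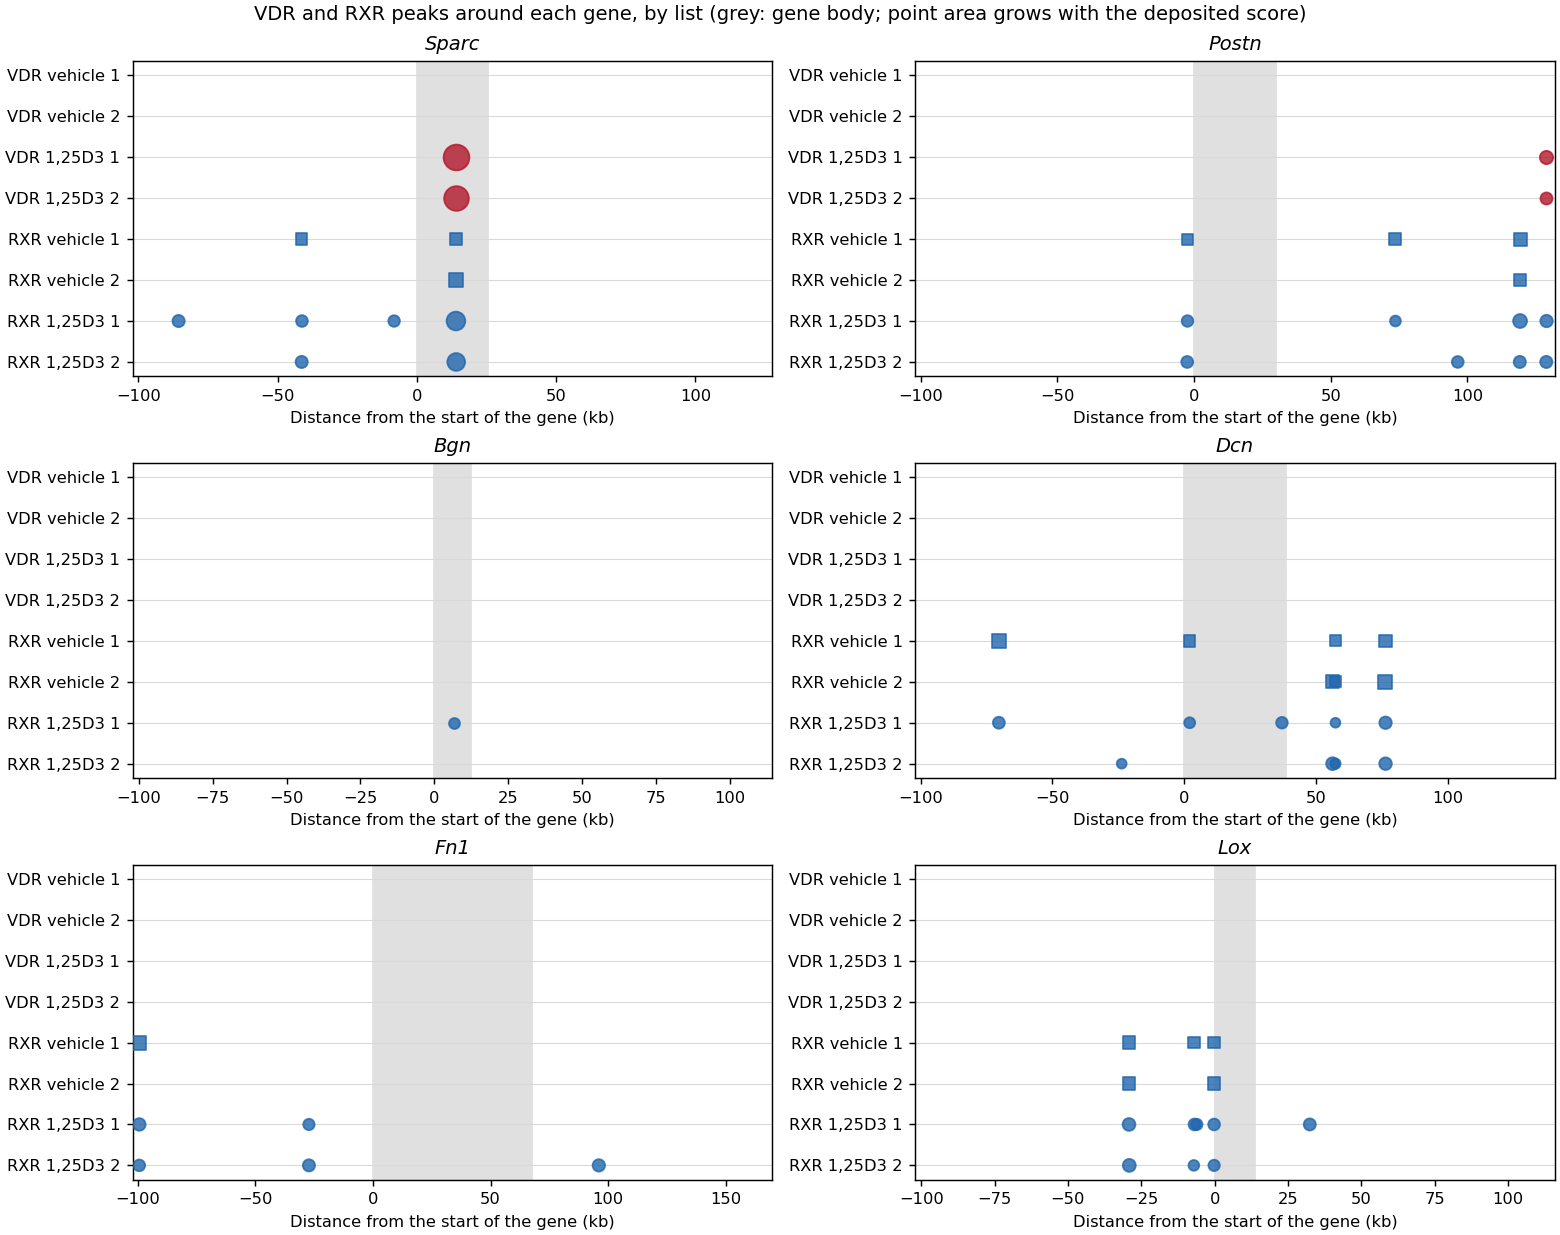
VDR (red) and RXR (blue) peaks in the 8 lists around each gene, by distance in kb from the gene's start in the direction of transcription; squares are vehicle, circles 1,25D3, grey is the gene body, and point area grows with the deposited score. VDR points appear only in the 1,25D3 rows of Sparc, at 14.1 kb, and of Postn, at 128.9 kb.

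RXR sites were found in both replicates near 4 genes with vehicle and 5 genes with 1,25D3. Vehicle gave 6 sites, of which 1 was at Sparc, 1 at Postn, 2 at Dcn and 2 at Lox. With 1,25D3 there were 12 sites, of which 2 were at Sparc, 3 at Postn, 2 at Dcn, 2 at Fn1 and 3 at Lox. With lists of equal length there were 3 sites with vehicle, 2 with 1,25D3 and 0 hormone-only. Over all genes 30.5% had an RXR site within 100 kb with vehicle, 45.0% with 1,25D3 and 14.6% a hormone-only one. Hormone-only RXR sites were 2 in number, at Postn and Fn1.

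RXR peak counts in the 6 windows were 13 and 7 with vehicle and 21 and 16 with 1,25D3, so the arms did not overlap. Over the whole genome the lengths of the RXR lists did not overlap between the arms either. They were 6875 and 4093 peaks with vehicle and 10333 and 7635 with 1,25D3. The means in the windows were 10.0 ± 4.24 and 18.5 ± 3.54 (SD, n = 2). The ratio of 1,25D3 to vehicle in the windows was 1.62 in replicate 1 and 2.29 in replicate 2. The difference of 8.5 peaks had p = 0.33 in the same exact permutation test. It reversed to -2.5 peaks when the 4 RXR lists were limited to the same number of peaks, so it moved with the length of the lists. With only the higher-scoring 50% of each list it was 1.0 (exact p = 1.0). The file names of replicate 1 factor libraries lack an index tag that the other libraries carry, which may mark 2 library batches, and each arm holds 1 library of each.

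By gene, Sparc had 2 and 1 RXR peaks with vehicle and 4 and 2 with 1,25D3 in replicates 1 and 2. Postn had 3 and 1 with vehicle and 4 and 4 with 1,25D3, and Fn1 had 1 and 0, and 2 and 3. Dcn had 4 and 3, and 5 and 4, and Lox had 3 and 2, and 5 and 3. Within every replicate the 1,25D3 list held more peaks than the vehicle list at each of these 5 genes, and at Bgn the counts were 0 and 0, and 1 and 0. The whole 1,25D3 list was also the longer one in replicate 1 (10333 against 6875 peaks) and replicate 2 (7635 against 4093). These counts by gene were not adjusted for list length. The second RXR site at Sparc with 1,25D3 lay 41.4 kb upstream, at the start of the neighbouring gene Atox1 (scores 7.1 and 7.9). At Postn a site 2.4 kb upstream scored 6.8 and 7.4 with 1,25D3, and vehicle replicate 1 had a peak there too (6.0). The third Postn site, at 119.3 kb, was called in all 4 libraries, with scores of 9.5 and 9.3 with vehicle and 11.4 and 7.9 with 1,25D3. Both Postn sites past the gene's end lay within 10 kb of each other, and neither was nearer to the start of another protein-coding gene.

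The proteoglycan genes differed from each other in RXR. Dcn (ENSMUSG00000019929.8, chr10:96942245-96980777, plus strand, 38.5 kb) had sites 57.4 and 76.4 kb downstream of its start in both arms, and these were nearer to Lum, the gene of the related proteoglycan lumican, whose start was 28.5 and 9.5 kb away. The site at 76.4 kb scored 7.8 and 11.3 with vehicle and 8.4 and 8.7 with 1,25D3. Bgn (ENSMUSG00000031375.10, chrX:70728941-70741272, plus strand, 12.3 kb) had no site in both replicates of any arm, and its 1 peak, in an intron at 6.7 kb, appeared in replicate 1 with 1,25D3 only (score 5.7).

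Fn1 (ENSMUSG00000026193.8, chr1:71632094-71699774, minus strand, 67.7 kb) had a hormone-only RXR site 27.2 kb upstream, with scores of 6.4 and 7.9. Its other site, 99.3 kb upstream, scored 8.7 and 7.0 with 1,25D3 and was called with vehicle in replicate 1 alone (10.5). The start nearest to both sites was that of the neighbouring gene Apol7d, 27.1 and 99.2 kb away, almost the same distance as that of Fn1. Lox (ENSMUSG00000024529.6, chr18:52675723-52689521, minus strand, 13.8 kb) had an RXR site at its own start, 0.2 kb upstream, called in all 4 libraries (6.4 and 8.5 with vehicle, 7.1 and 6.4 with 1,25D3). Its sites 7.0 and 29.2 kb upstream scored 7.1 and 5.3, and 9.1 and 9.3, with 1,25D3.

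All 12 RXR sites lay in H3K4me1, H3K27Ac and H4K5Ac regions on both days, and of all 6783 RXR sites with 1,25D3 97.7%, 90.3% and 92.6% did so on day 3 and 98.9%, 95.0% and 96.5% on day 35. H3K9Ac regions held 11 of the 12 on each day (76.4% and 74.9% of all sites) and H3K4me2 regions 10 (74.6% and 87.6%). H3K4me3 held 1, at Atox1 on day 3, and none on day 35 (11.6% and 7.84%). By position 9 were intergenic, 2 were within 1 kb of a start and 1 was in an intron, against 49.8%, 10.6% and 38.2% of all sites. A DR3 was found at 3 of the 12 (Sparc, the hormone-only Postn site and Lox at 29.2 kb), against 11.0% of all 6783 RXR sites with 1,25D3. TGANTCA, with any middle base, was found at 5 of the 12 (35.7% of all). TGTGGT, the letters bound by RUNX factors, was found at 3 of the 12 (32.4%). A DR5, spaced by 5 bases, stood at the Postn site 2.4 kb upstream (11.6% of all RXR sites), and a DR1, spaced by 1 base, at the Lox site 7.0 kb upstream (9.05%). The Sparc VDR site lay in H3K4me1, H3K27Ac, H4K5Ac, H4K20me1 and H3K36me3 regions on both days and in an H3K9Ac region on day 3 only.

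All 6 genes carried acetylation at their starts on day 3 already. H3K27Ac and H4K5Ac covered 100% of the 4 kb around each start on both days. Of all genes, 59.4% had some H3K27Ac within 2 kb of the start on day 3. The share of all genes covered in full, and any share for H4K5Ac, was not examined. Coverage below is the percentage of bases within called regions, over the gene body extended by 5 kb at both ends, and a gene is said to have risen or fallen where this moved by more than 10 percentage points. With 1 library per mark and day there is no replicate check and no test. H3K27Ac rose at 5 of the 6 genes and fell at none, against 17.8% of all genes that rose and 5.82% that fell. Among the 13209 genes with H3K27Ac within 2 kb of the start at day 3, a background chosen after the data had been seen, 27% rose. The called H3K27Ac regions of the whole genome also grew, from 225.8 to 270.1 Mb, and H4K5Ac regions from 297.0 to 335.0 Mb; the part of this growth in the values of the 6 genes was not tested.

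**Figure D2:**
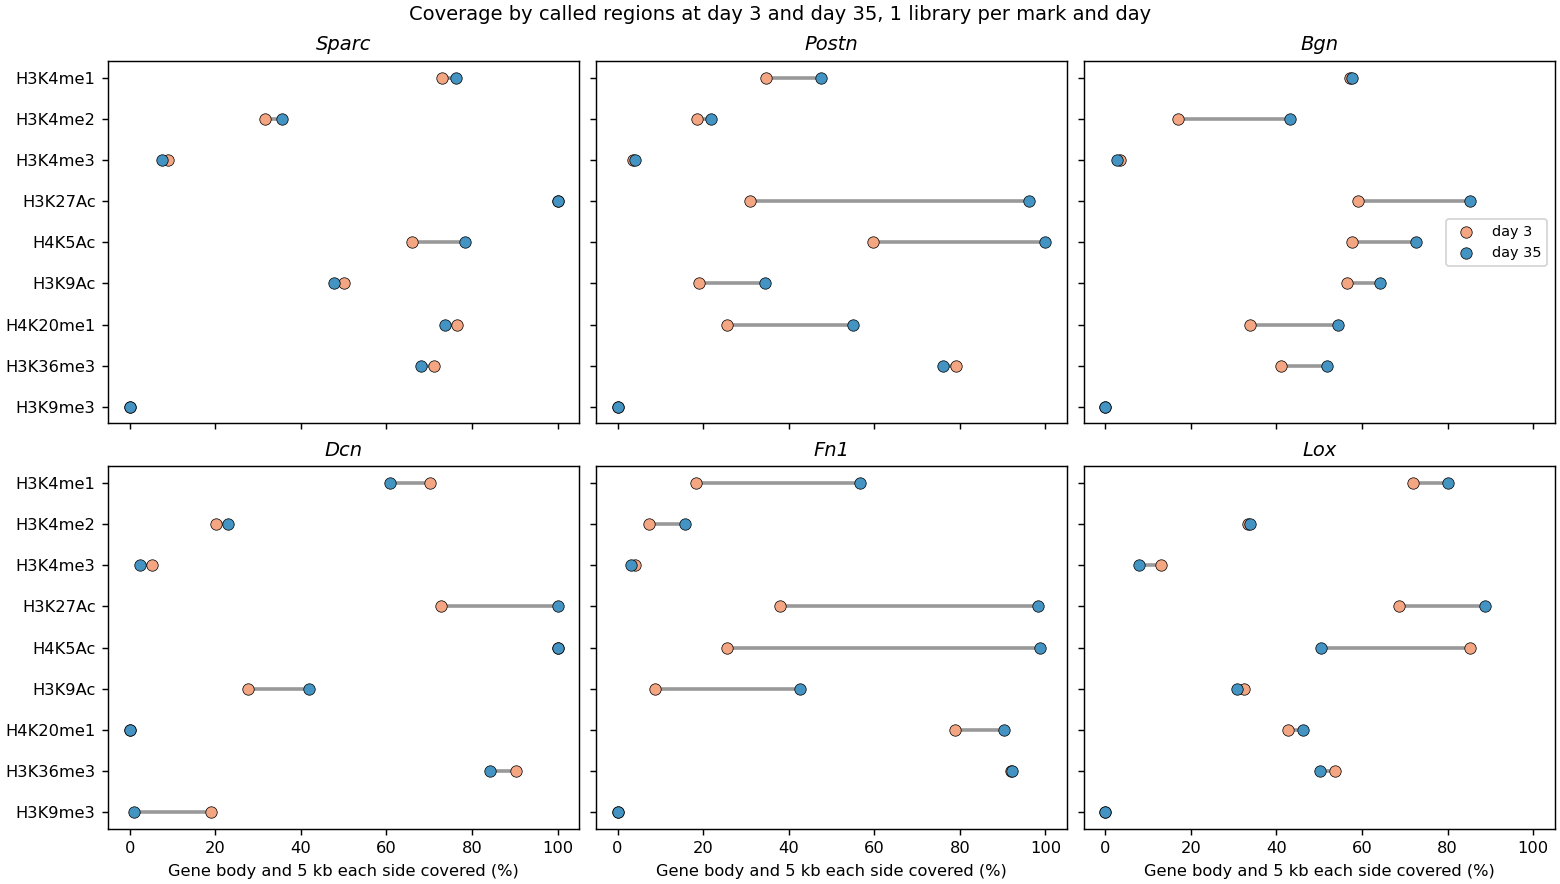
Percentage of each gene body, extended by 5 kb at both ends, within called regions of 9 histone marks at day 3 (orange) and day 35 (blue), 1 library per point. H3K27Ac moved from 30.9% to 96.1% at Postn and from 38.0% to 98.3% at Fn1, while Sparc was at 100% on both days.

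The matricellular genes differed in H3K27Ac coverage on day 3. Sparc was at 100% H3K27Ac on both days, in a region of 47.6 kb on day 3 and 44.9 kb on day 35 that ran from 13.9 kb before the start at day 35 to past the gene's end. Its H4K5Ac coverage rose from 65.9% to 78.4%, although the H4K5Ac region over its start narrowed from 38.3 to 24.4 kb. Its H3K9Ac coverage was 50.2% and 47.8%. Postn had 30.9% H3K27Ac coverage on day 3, in 5 regions, and 96.1% on day 35, in 1 region. Its region over the start widened from 7.68 to 38.4 kb. Only 33 of the 22225 genes gained more H3K27Ac coverage. H4K5Ac at Postn rose from 59.8% to 100%, and its region over the start grew from 8.70 to 129 kb, which reached from 8.28 kb before the start to 120 kb after it. That day-35 region covered the RXR site at 119.3 kb. H3K9Ac rose from 19.1% to 34.5% and H3K4me1 from 34.7% to 47.5% at Postn. In the 100 kb downstream of Postn H3K27Ac coverage went from 43.8% to 74.9%. H4K5Ac already covered 76.3% of that flank on day 3, in separate regions, and 96.7% on day 35.

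Fn1 showed the largest H4K5Ac gain among the 6 genes. Its H4K5Ac coverage rose from 25.6% to 98.8%, and only 6 genes of 22225 gained more. H3K27Ac rose from 38.0% to 98.3% (48 genes gained more), as 6 regions on day 3 became 1 region of 81.3 kb, which spanned the gene from 3.67 kb before its start to 77.6 kb after it and was the 89th widest of 67302. H3K9Ac rose from 8.66% to 42.7% and H3K4me1 from 18.4% to 56.7% at Fn1, with 59 genes gaining more H3K4me1. The H3K36me3 coverage of the gene was 92.0% and 92.1%.

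The proteoglycan genes also gained H3K27Ac, with different starting points in H4K5Ac. Dcn rose from 72.7% to 100% H3K27Ac, and its region over the start went from 40.4 to 104 kb, the 49th widest of the day-35 list. On day 3 the extended gene held 5 separate H3K27Ac regions, which were joined into 1 on day 35. Coverage of the 100 kb upstream was already 89.3% on day 3 (93.9% on day 35), and downstream it went from 59.2% to 72.5%. Dcn lay in an H4K5Ac region of 192 kb on both days, the 4th widest on day 3 and the 7th widest on day 35, so that coverage was 100% throughout. Its H3K9Ac rose from 27.7% to 41.8%. Bgn rose from 59.0% to 85.3% in H3K27Ac, from 57.6% to 72.5% in H4K5Ac and from 17.1% to 43.1% in H3K4me2. It was the only one of the 6 whose H3K4me2 rose, and its H3K9Ac moved from 56.5% to 64.1%, short of 10 points.

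Lox differed in direction between the acetyl marks. Its H3K27Ac rose from 68.7% to 88.7%, whereas H4K5Ac fell from 85.2% to 50.3%, and only 103 of 22225 genes lost more. The H3K27Ac region over its start widened from 16.3 to 24.2 kb while the H4K5Ac region narrowed from 20.4 to 15.1 kb. H3K9Ac at Lox was 32.5% and 30.7%. Downstream of Lox, over 100 kb, H3K27Ac coverage went from 25.3% to 12.9% and H4K5Ac from 28.7% to 13.1%. Of the other genes in the window, Srfbp1 went from 50.9% to 27.7% and Zfp474 from 91.2% to 50.7% in H3K27Ac.

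H4K5Ac thus rose at 4 genes (Sparc, Postn, Bgn and Fn1) and fell at 1 (Lox), against 13.4% and 6.66% of all genes, and 18.2% of genes with H3K27Ac at the start at day 3 rose. H3K9Ac rose at 3 genes (Postn, Dcn and Fn1) and fell at none, against 7.1% and 3.65% of all genes and 10.7% of those with H3K27Ac at the start. For 3 genes (Postn, Bgn and Fn1) H3K27Ac rose past 10 points with both other acetyl marks higher as well, against 11.5% of all genes, and no gene of the 6 had the same fall, against 4.11%. The median H3K27Ac change was 26.8 points over the 6 genes and 0.0 over all genes.

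**Figure D3:**
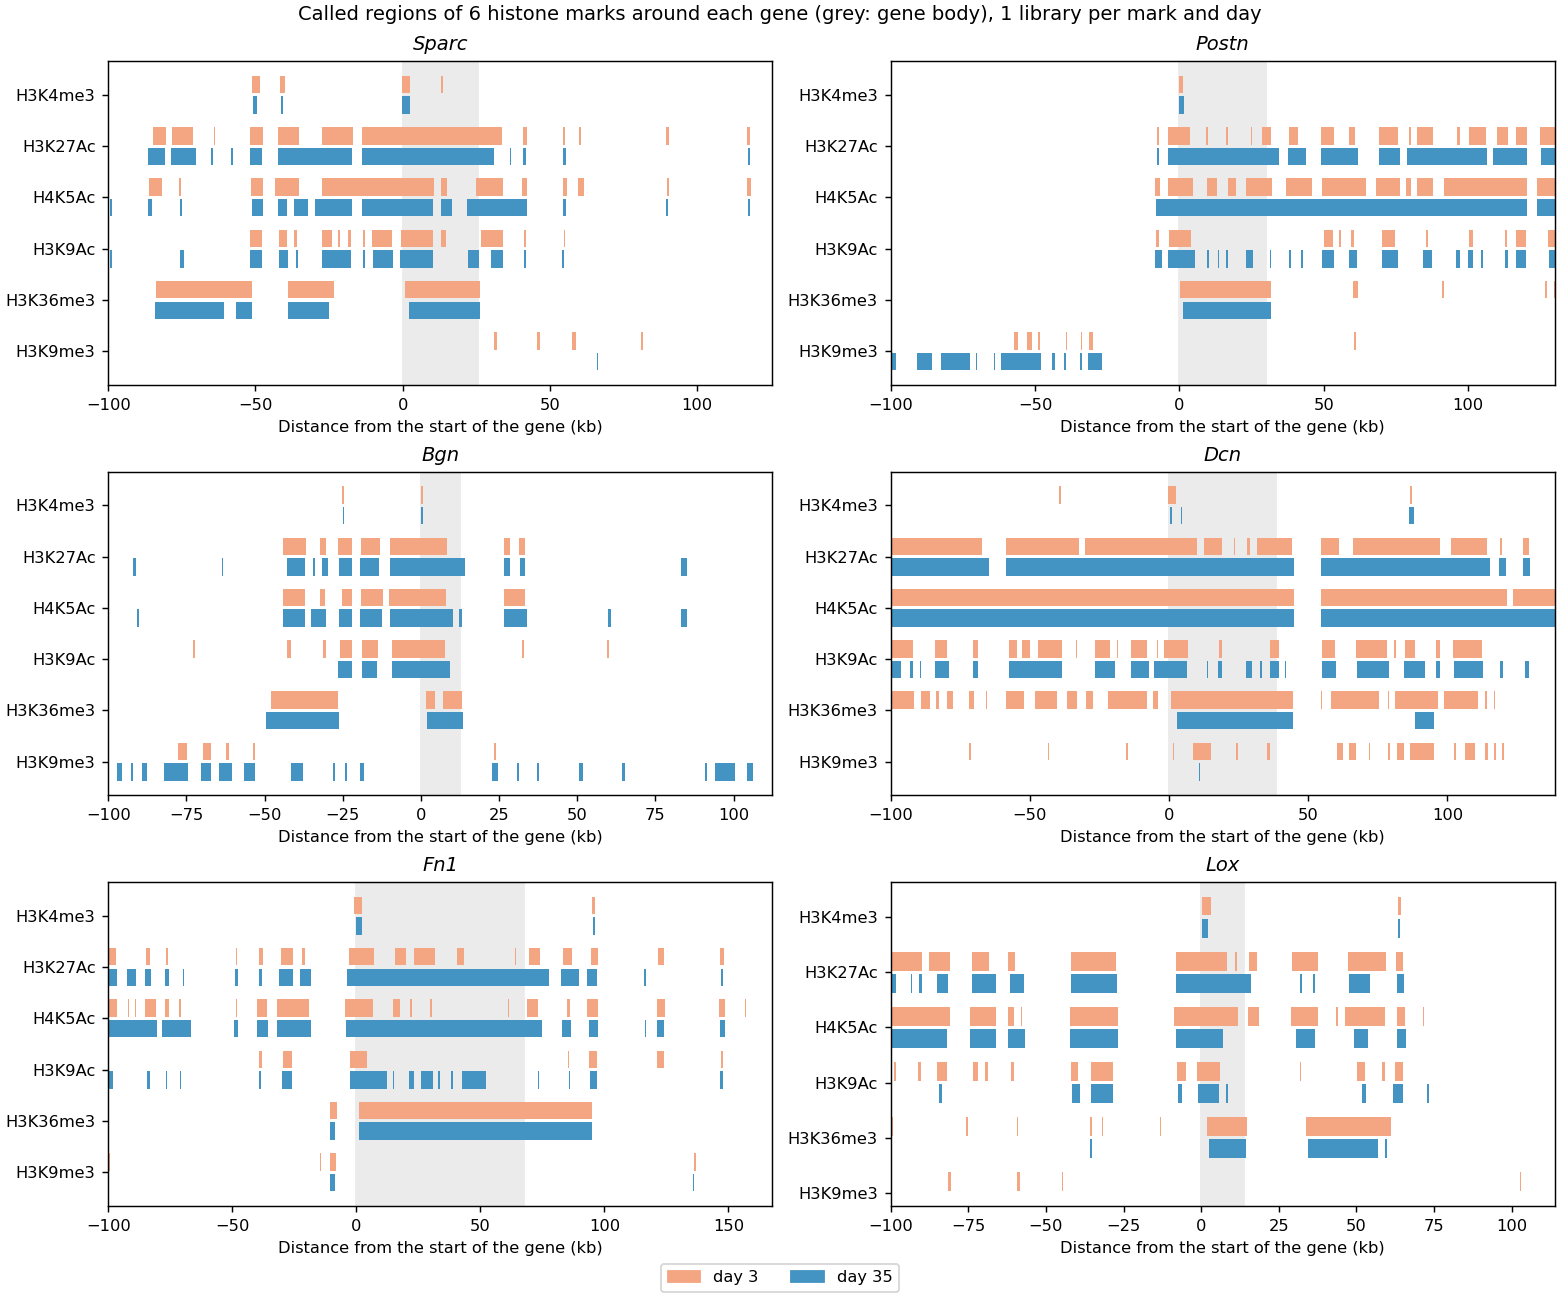
Called regions of 6 histone marks around each gene at day 3 (orange) and day 35 (blue), by distance in kb from the gene's start; grey is the gene body and each bar is 1 called region. The separate H3K27Ac and H4K5Ac regions of Postn and Fn1 on day 3 are joined on day 35, and the H3K9me3 and H3K36me3 regions around Dcn are mostly gone.

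H3K4me1 rose at 2 of the 6 genes (Postn and Fn1) and fell at none, against 8.05% and 9.94% of all genes. H3K4me2 rose at 1 gene and fell at none, against 9.17% and 0.558%. The called H3K4me2 regions of the whole genome grew from 87.64 to 130.2 Mb. At the starts, over 2 kb each side, H3K4me1 went from 100% to 54.1% at Sparc and from 45.8% to 100% at Lox.

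H3K4me3, which marks promoters, lay mostly in short regions at the starts, and its coverage of the body rose or fell past 10 points at none of the 6 genes, against 0.157% and 2.15% of all genes. The region at Dcn shrank from 2.56 to 0.644 kb, and its coverage of the 4 kb around the start went from 55.4% to 16.1%. At Fn1 the same coverage went from 75.5% to 56.4%. The regions at Lox were 3.09 and 1.89 kb, at Sparc 2.67 and 2.71 kb, at Postn 1.41 and 1.68 kb, and at Bgn 0.784 and 0.633 kb. H3K4me3 regions of the whole genome shrank from 17.61 to 12.97 Mb.

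H4K20me1 rose at 3 genes and fell at none, against 17.9% and 6.15% of all genes. Postn went from 25.7% to 55.0%, Bgn from 33.9% to 54.3% and Fn1 from 78.9% to 90.4%. Dcn had no H4K20me1 in its body on either day, although H3K36me3 covered 90.4% and 84.1% of it. H3K36me3 rose at 1 gene, Bgn (41.0% to 51.8%), and fell at none, against 10.7% and 9.87% of all genes. On both days H3K36me3 covered at least 41.0% of each of the 6 gene bodies, and its median over the 6 was 75.1% on day 3 and 72.1% on day 35, against 11.6% and 17.4% over all genes. At the starts, over 2 kb each side, H3K36me3 went from 26.0% to 0% at Sparc, from 46.9% to 19.2% at Postn and from 30.1% to 0% at Dcn. It went from 10.8% to 2.35% at Bgn and from 2.85% to 0% at Lox, and was 20.1% and 21.0% at Fn1. The same change at the starts of all genes was not examined.

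The Dcn window lost H3K36me3 and H3K9me3 regions outside the gene between day 3 and day 35. H3K36me3 covered 53.3% of the 100 kb upstream and 53.0% of the 100 kb downstream on day 3, and 0% and 12.7% on day 35. H3K9me3 had 18 regions in the Dcn window on day 3, of which 17 overlapped an H3K36me3 region, and 1 region on day 35. H3K36me3 covered 60.4% of that whole window on day 3. The other 5 windows held 4 to 7 H3K9me3 regions on day 3. Of these, H3K36me3 overlapped 0 of 4 at Sparc, 1 of 7 at Postn, 0 of 5 at Bgn, 2 of 4 at Fn1 and 1 of 4 at Lox. The share over all H3K9me3 regions was not examined. In the gene body with 5 kb each side H3K9me3 fell from 19.0% to 1.03%, and in the body of Lum it went from 65.5% to 0%. H3K9me3 rose at none of the 6 genes and fell at 1, Dcn, against 4.2% and 4.17% of all genes. The bodies of the other 5 genes held none on either day.

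H3K9me3 covered more of the upstream flank of Postn and of both flanks of Bgn on day 35 than on day 3. In the 100 kb upstream of Postn its coverage went from 6.51% to 39.2%, over Trpc4, a cation channel gene whose own coverage went from 6.13% to 46.9%. Downstream of Postn it was 0.829% on day 3 and 0% on day 35. In the Bgn window it had 5 regions on day 3 and 21 on day 35, and coverage of the 100 kb upstream went from 6.8% to 28.4% and of the 100 kb downstream from 0.804% to 14.6%. Bgn is X-linked, and the windows of 927 X-linked genes had a median coverage of 0.866% on day 3 and 14.2% on day 35, against 1.6% and 0.849% for 21281 autosomal genes. The called H3K9me3 regions of the genome went from 48.02 to 74.8 Mb.

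Among the 6 genes, coverage over the 18 histone lists was most alike for Postn and Fn1 (mean absolute difference 12.5 points) and least alike for Fn1 and Lox (26.6 points). The nearest genes of comparable length (0.5 to 2 times) to Sparc were 2310037I24Rik, Fosl2 and Eif4b, at 4.68 to 5.32 points. Those nearest to Postn were Mxd1, Tgfb3 and Lrp4, at 7.54 to 8.02 points. In H3K27Ac Mxd1, the nearest, went from 33.2% to 63.9%, Tgfb3 from 30.4% to 97.7% and Lrp4 from 25.1% to 94.8%. Bgn was nearest to Smarcd2, Nme1 and Grn (6.17 to 6.46 points), Dcn to Ccrl1, Ccdc53 and Masp1 (7.06 to 9.73 points), Fn1 to Arnt, Atp2a2 and Psmb7 (8.23 to 8.36 points) and Lox to BC005764, Rtkn and Ptbp1 (5.77 to 7.05 points). The median gene compared was 23.8 to 37.0 points away. The lists share libraries and depth, so these distances are descriptions.

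The 6 genes were set beside 104 genes of matrix proteins, their processing enzymes and their receptors, which include them. H3K27Ac rose at 54 of the 104 and fell at 3, against 17.8% and 5.82% of all genes, and the median change was 11.8 points against 0.0. These lists were chosen with earlier results known, so the counts are descriptions. By list it rose at 6 and fell at 1 of 15 small leucine-rich proteoglycans, rose at 13 and fell at 0 of 23 lysyl oxidases and collagen-maturing enzymes, and rose at 10 and fell at 1 of 24 SPARC family and matricellular genes. It rose at 15 and fell at 1 of 24 fibronectin, fibrillin and elastic fibre genes and rose at 10 and fell at 0 of 18 receptors.

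Postn and Fn1 had the largest H3K27Ac rise of their lists, and all 3 acetyl marks were higher there. Of the proteoglycan genes only Bgn and Nyx had an H3K27Ac rise of over 10 points with both other acetyl marks higher; Chad (30.9 points) and Dcn (27.3) gained more H3K27Ac than Bgn (26.3) without the other marks both higher. Among the enzymes with all 3 marks higher, Bmp1, which encodes the proteinase that trims procollagen, gained most (25.1% to 69.9%), while P4ha1 gained more (45.9% to 94.6%) with H4K5Ac lower (47.1% to 38.3%). Itga11, a collagen-binding integrin, led the receptors (37.5% to 85.9%). H3K27Ac fell with both other marks lower at Ecm2 (66.4% to 54.8%) and Efemp1, which encodes fibulin-3 (36.6% to 17.7%). Of the 104 genes 26 had a hormone-only VDR site within 100 kb and 85 an RXR site with 1,25D3, against 10.8% and 45.0% of all genes. The windows of longer genes are larger, and gene length was not matched. Neighbouring genes can share a site, as Aspn, Ecm2, Ogn and Omd do, so the 26 genes do not stand for 26 separate VDR sites.

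**Figure D4:**
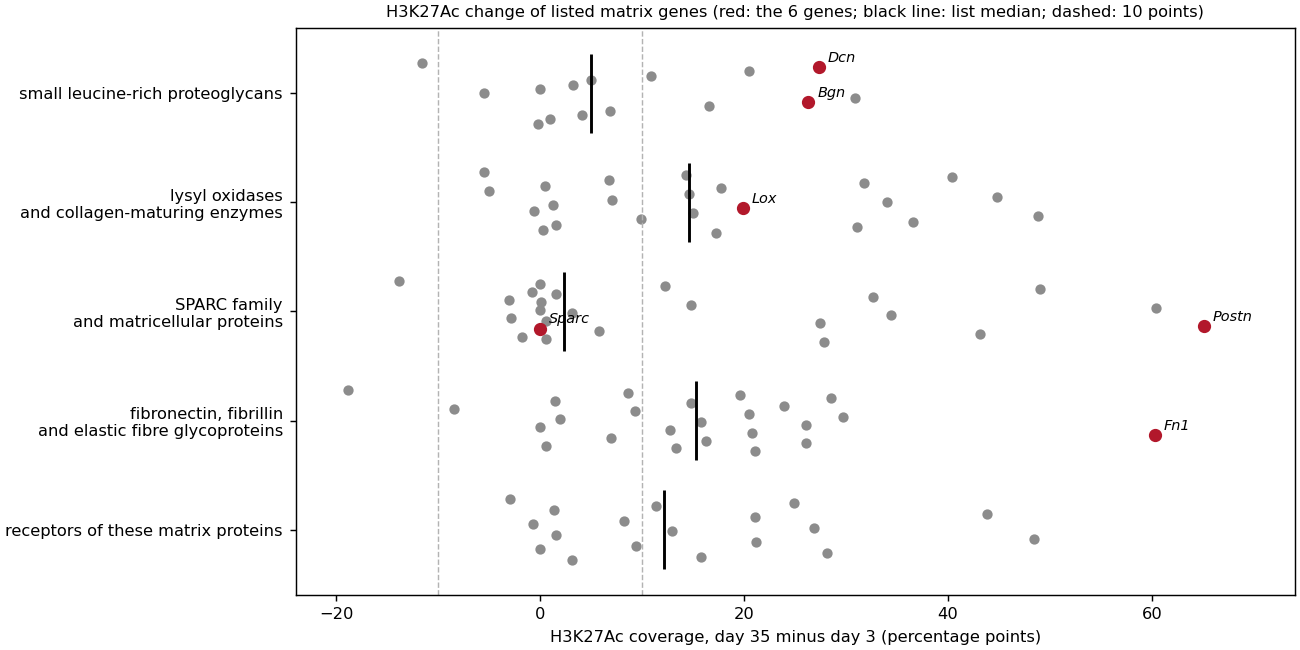
Change of H3K27Ac coverage from day 3 to day 35, in percentage points, of 104 listed matrix genes by list; each point is 1 gene, red points are the 6 genes, black lines are list medians and dashed lines mark 10 points. Postn and Fn1 lie above 60 points, Dcn, Bgn and Lox between 19 and 28 points, and Sparc at 0.

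Ranked by score, the hormone-only VDR site of Sparc stood first among the listed genes. It was followed by sites near Emilin2 (scores 36.7 and 38.5, 60.8 kb from the start) and Fbn1, the fibrillin-1 gene, which had 3 sites (27.9 and 29.6 at the best). Lepre1, a prolyl hydroxylase of collagen, had 27.6 and 29.6, and Tgm2, a transglutaminase that cross-links matrix proteins, had 22.5 and 24.0. Fbln7 (18.4 and 18.4), Serpinh1, the collagen chaperone (20.4 and 15.4), Matn4 and Sdc4, which share a site (14.7 and 14.5), and Plod2, a lysyl hydroxylase of collagen (12.6 and 16.3), came next. RXR overlapped the site of each of these genes with 1,25D3.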

How the data were processed

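Per the submitters' processing notes, the tools were Bowtie and HOMER and the build was mm9; versions and settings, and whether inputs were used, are unstated in these sources. The deposited lists give, per library, each called region with a score, the authors' own peak score, whose scale is not stated. Lists of 26 of 28 samples were used; the 2 input samples were not analysed here. Coordinates are 1-based; 0 regions passed a chromosome end of the reference. Genes came from GENCODE M1, 1 record per symbol. Overlap, coverage and the exact permutation test were computed in Python 3.11.15 (numpy 2.4.6, pandas 2.3.3, scipy 1.17.1), and the functions were tested on simulated regions. Read depth is unknown.

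The 6 genes, the gene lists and the tests were chosen with earlier results of these data known. Named genes were the 6, the 10 listed genes with the best ranked hormone-only VDR site, the largest rise and fall of H3K27Ac per list with all 3 acetyl marks the same way, the 3 genes most like each of the 6, and genes nearest to a site. Alternatives covered overlap, windows, list length, thresholds and replicates.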

Additional observations from a re-analysis of the deposited data

How the results depend on the processing

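For VDR and RXR, 1 replicate per arm would leave no test, and 2 per arm cannot pass a threshold, so p-values say nothing about stability. With the replicate number as a block (paired sign flips within replicate numbers) the differences were 2 VDR and 8.5 RXR peaks, each with p = 0.5 by the exact test. With lists of equal length the RXR difference reversed to -2.5 peaks, VDR sites with 1,25D3 and hormone-only were 1 each, RXR sites were 3 with vehicle and 2 with 1,25D3, and hormone-only RXR sites were 0; the cause was not tested beyond the shorter lists. With the higher-scoring 50% of each list the RXR difference was 1.0 peak (exact p = 1.0), VDR sites were 1 and 1, and RXR sites 1 with vehicle, 2 with 1,25D3 and 0 hormone-only. With 50 kb windows VDR sites were 1 and 1 and hormone-only RXR sites 1; with 200 kb the latter were 4. Leaving out 1 replicate gave 7 to 13 RXR sites with vehicle, 16 to 21 with 1,25D3 and 8 to 9 hormone-only, since 1 list then has no overlap to pass.

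For histone marks, counts of the 6 genes were within 1.5 times of those reported with the gene body alone, the higher-scoring 50% of regions, equal region numbers on both days, and regions merged across 1 kb. The genes behind the counts were not all the same. With the gene body alone H3K9Ac rose by 13.8 points at Bgn but by 9.69 at Dcn. There H3K4me1 rose by 16.5 points at Sparc, and H4K20me1 at Fn1 by only 9.42. With 20 kb each side H3K4me1 rose at 1 gene, and H3K36me3 rose at 0 and fell at 1. At 20 points H3K4me1 rose at 1, H4K5Ac at 2, H3K9Ac at 1, H3K36me3 at 0, and H3K9me3 fell at 0. Over 2 kb each side of the start H3K27Ac, H4K5Ac, H3K9Ac and H3K36me3 rose at 0 genes and H3K4me1 and H4K20me1 at 1. H3K27Ac and H4K5Ac already covered 100% of this span on day 3 at every gene, so neither could rise. H3K9Ac covered 97.3% or more of it at Postn, Bgn, Dcn and Fn1, so only Sparc and Lox had room for a rise. There H3K4me1 and H3K9Ac fell at 1 gene, H3K4me3 at 2, H3K36me3 at 3 and H4K5Ac at 0. The change reversed there for H4K20me1 at Postn (-5.2 points) and Bgn (-1.35) and for H3K36me3 at Bgn (-8.42); the cause was not tested.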

Other observations

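Several small leucine-rich proteoglycan genes shared VDR sites, named here after their values were seen. Aspn, Ecm2, Ogn and Omd lie close together and had the same hormone-only VDR site within 100 kb, at chr13:49718529-49718913, with scores of 8.7 and 10.1 and an overlapping RXR site. It lay 15.3 kb from the start of Ogn, which encodes osteoglycin, and 40.6 kb from that of Omd, which encodes osteomodulin. Fmod, the fibromodulin gene, had 2 hormone-only VDR sites, the better one with scores of 9.5 and 10.7, and Prelp had 1 (11.5 and 8.9). With Postn at 10.1 and 7.7, these scores are well under the 47.5 and 43.3 of Sparc. Loxl2, a relative of Lox, had a hormone-only VDR site 79.6 kb from its start (14.4 and 12.5), and its H3K27Ac coverage was 48.9% on day 3 and 66.6% on day 35.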
